A study of Mus musculus with 6 samples.

Results

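Potassium channel subunits were followed across 6 arrays of cultured mouse astrocytes. The subunits were taken as every non-control probe whose accession maps to a current gene symbol of the form Kcn, letters and a number, which gave 112 of 41174 probes for 82 genes. In 48 of these genes a probe was called well above background in some group, on both of its arrays, and these were tested among 20091 features, whereas the other 34 were not tested. The astrocytes came from the cortex and striatum of wild-type C57BL/6J pups on the first day after birth. Washout cultures received 1 µM Ro3303544, a small-molecule inhibitor of the kinase GSK-3, for 48 h, followed by 48 h in medium without it. Ro cultures received 1 µM Ro3303544 for 48 h. The medium held 10% fetal bovine serum in every group. Control cultures were kept in that medium, and the protocol in the labels also names an equivalent amount of the solvent DMSO for them. Each group had 2 arrays. All cultures had been treated with cytosine arabinoside, a blocker of DNA synthesis, for 2 days from about day 7 to deplete microglia, and treatment began after 13 days in vitro. Nothing in the labels says whether replicate cultures were prepared separately, so p-values measure the spread between these arrays, which may be technical. Washout cultures were harvested 48 h later than the others with no control of that age.

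Potassium channels are tetramers or dimers of pore-forming subunits that let potassium pass and hold the membrane near the potassium equilibrium potential. Astrocytes use inward rectifier and two-pore channels to keep a very negative resting potential and to take up the potassium that active neurons release. Voltage-gated channels open on depolarisation, calcium-activated channels couple calcium signals to the potential, and auxiliary subunits change the gating or the surface delivery of the pores.

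Per array, 60.3% to 65.2% of probes were called well above background and the 75th percentile of processed intensity was 629 to 804. Precision is limited by having 2 arrays a group. Both Ro and both control arrays lay on 1 slide and both washout arrays on another, so washout and slide cannot be told apart. Dim spots were raised in bright regions of the washout slide, which took in 3.93% of all spots on the array of washout 1 and 0.851% on that of washout 2, and held the probes of 4 tested channel genes, Kcna5, Kcnc4, Kcnh2 and Kcnn1. All 10 astrocyte markers on the list were measured above background, and 3 were higher and 6 lower in Ro than in control. Their summed level was 131153 to 138681 in Ro, against 182922 to 193064 in control, in units of scaled intensity, where the 75th percentile of each array is set to 1000. All levels below are in that unit and are compared only between groups for the same probe, since probes differ in brightness. A summed level adds the same probes in every group, so the brightest weigh most and members that moved the other way can be hidden. Differences are between group means on the log2 scale, each with limma's standard error after the ± sign (n = 2 arrays a group), and a call is a Benjamini-Hochberg adjusted p under 0.05 over all 20091 features.

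The comparison of Ro with control asked which channel transcripts differed after sustained inhibition of GSK-3. Among the 48 tested channel genes 8 were higher and 23 lower in Ro, and 17 did not pass the threshold. Over all features 42.1% passed, 19.4% as higher and 22.7% as lower. Which direction held more of these calls over all features turned with median centring and with the authors' table, while the channel counts stayed at 8 and 23. Calls with a fitted difference of at least 2-fold numbered 4 higher and 17 lower, while such calls made up 4.31% and 6.95% of all features. Among them Kcnj2, higher, and Kcnmb1 and Kcns1, lower, are given below as bounds under 2-fold, and Kcna5, lower, without a fold. The median log2 difference was -0.65 over the tested channel genes and 0.004 over all features. The filter bears on these counts, because 10 of the 48 genes passed it through 1 group alone, 7 of them through control. With probes above background on all 6 arrays, 33 channel genes were left, of which 7 were higher and 19 lower, beside 21.7% and 24.6% of the features tested that way. The family counts were not repeated with that stricter filter, and they include called genes that passed the main filter through 1 group alone. These were Kcnj2 through Ro, Kcnmb1, Kcnn4 and Kcns1 through control, and Kcna5 through washout. Counted by family, the calls were as follows. Of 6 inward rectifiers 3 were higher and 1 lower, of 6 two-pore channels 1 was higher and 4 lower, and of 19 voltage-gated pore subunits 2 were higher and 10 lower. Of 8 calcium-activated and related channel subunits 2 were higher and 3 lower. The Kcnmb beta subunits, though auxiliary, were counted in that group, and auxiliary here means Kcnab, Kcne and Kcnip genes only. Of these 8 auxiliary subunits 5 were lower, and limma called none higher, with 0 higher and 7 lower at an unadjusted p under 0.05. The median log2 difference was 0.74 for the inward rectifiers, -0.85 for the two-pore channels, -1.08 for the voltage-gated subunits, 0.23 for the calcium-activated group and -0.83 for the auxiliary subunits. These medians use fitted differences, also for genes not well above background in a group, such as Kcna4, Kcna5, Kcns1, Kcnj2 and Kcnmb1. Differences between families were not tested.

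**Figure D1:**
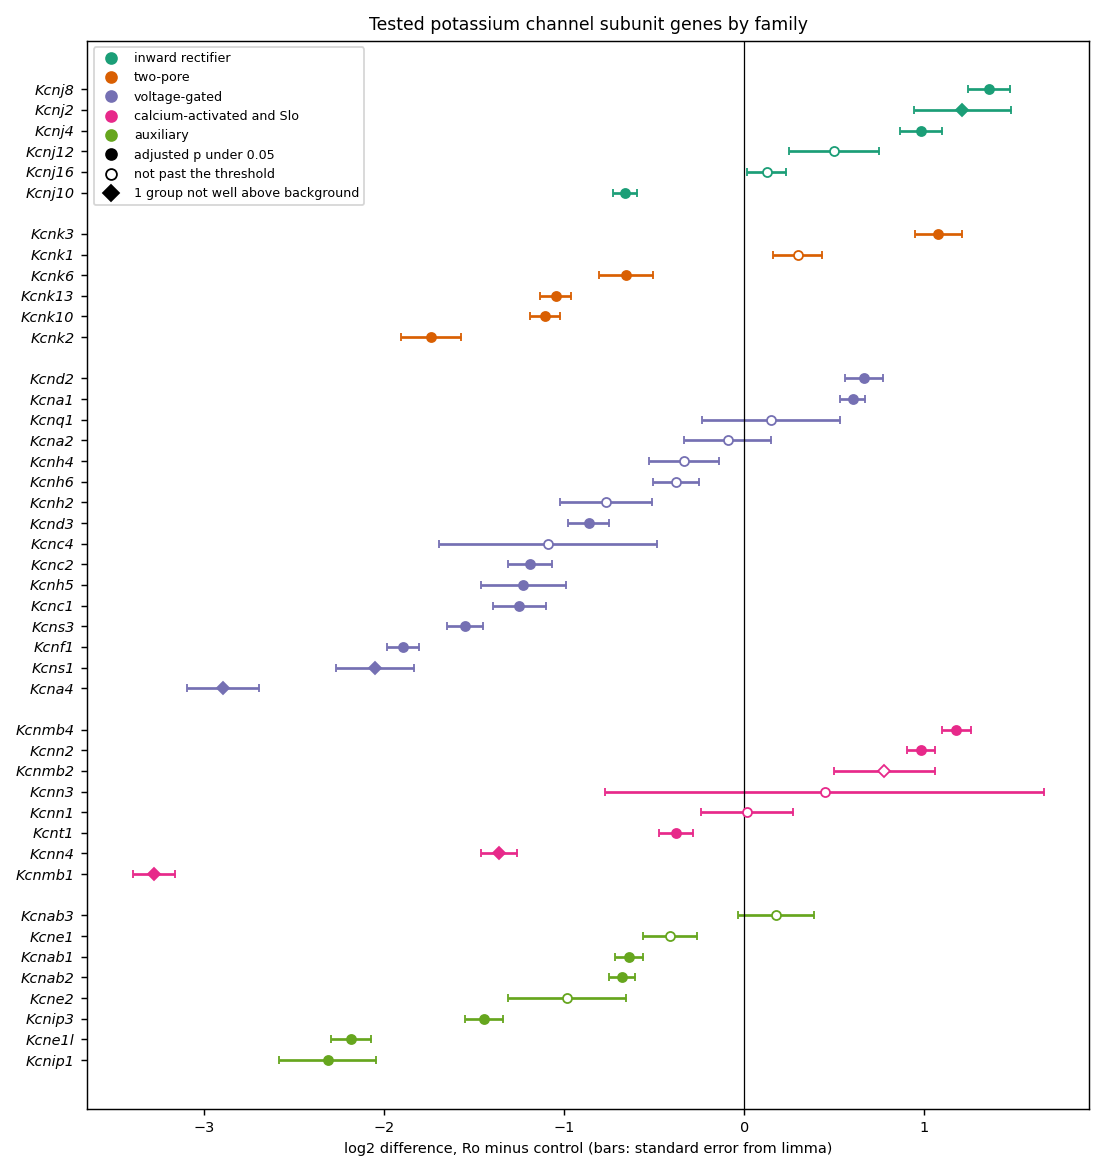
Log2 difference of Ro minus control for the tested channel genes, 1 row per gene, grouped by family, with the standard error from limma as bars (2 arrays per group); filled symbols passed an adjusted p of 0.05, diamonds have 1 group not well above background, and Kcna5 (neither group above background), the non-coding Kcnq1ot1 and genes not reported by name are not drawn. Most voltage-gated and auxiliary genes lie left of 0, while 5 of the 6 inward rectifiers lie right of it and Kcnj10 lies at -0.66.

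Kcnj10 encodes Kir4.1, the main inward rectifier of astrocytes. Its intensity was 36169.6 and 35987 in Ro cultures, against 57252 and 57023 in control cultures. Both Ro arrays lay below both control arrays, and the fall of 1.58-fold (-0.66 ± 0.07) passed the threshold (limma, adjusted p = 0.0016). Kcnj16 encodes Kir5.1, which joins Kir4.1 in mixed channels. It read 2014 and 2362 in Ro cultures, against 2075 and 1930.0 in control cultures, and the Ro arrays overlapped the control range. Its difference of 0.12 ± 0.11 had a 95% interval of -0.15 to 0.40 (limma, adjusted p = 0.399), and 2 further probes of the gene gave 0.19 and 0.20. Of the 2 partner subunits, then, Kcnj10 alone was called lower. Whether their changes differ from each other was not tested.

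The other inward rectifiers were higher in Ro or not past the threshold. Kcnj8 encodes Kir6.1, the pore of ATP-sensitive channels in vascular smooth muscle and pericytes, and measured 187 and 155 in Ro cultures, against 70.2 and 62.8 in control cultures. The arrays of the 2 groups were far apart, with a 2.57-fold rise (limma, adjusted p = 0.0011). Kcnj4, the strong inward rectifier Kir2.3, measured 1204 and 1259 in Ro cultures, against 690.0 and 563 in control cultures, a 1.98-fold rise (0.98 ± 0.12, limma, adjusted p = 0.0029). Kcnj2, the strong inward rectifier Kir2.1, was well above background only in Ro. It read 34.0 and 36.6 in Ro cultures, against 11.8 and 19.7 in control cultures, so that its rise is a bound of at least 1.52-fold (limma, adjusted p = 0.021). Such a bound sets the brighter group against the lowest signal called well above background on each array of the dimmer one, or the dim probe's own signal where that is higher. The Kcnj2 call was lost when Ro 1 or Ro 2 was left out. It was also lost with another background correction (normexp) and with no filter on dim probes. Kcnj12, which encodes Kir2.2, read 42.6 and 45.7 in Ro cultures, against 40.7 and 24.0 in control cultures, and did not pass (adjusted p = 0.173). Another 8 genes of the family were not well above background on both arrays of any group, among them Kcnj11, the Kir6.2 pore, and the G-protein-gated Kcnj3, Kcnj5, Kcnj6 and Kcnj9.

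Markers of pericytes and smooth muscle moved the other way from Kcnj8. Of the 5 of 6 such markers tested, Pdgfrb, Rgs5, Acta2 and Cnn1 were lower in Ro, and Myh11 (-0.71) did not pass. Their summed level was 110380 to 112386 in Ro, against 362352 to 398383 in control. Abcc9, which encodes the regulatory partner of Kir6.1 in those cells, was not well above background on both arrays of any group. In bulk RNA fewer cells of a type and less RNA per cell cannot be told apart.

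Two-pore channels carry background current that is open at rest. Kcnk1 encodes TWIK-1, which astrocytes express, and measured 2088 and 2623 in Ro cultures, against 1918 and 1893 in control cultures. Both Ro arrays were above both control arrays, but the difference of 0.30 ± 0.14 (95% interval -0.05 to 0.65) did not pass (limma, adjusted p = 0.143). The mechanosensitive Kcnk2, TREK-1, and its relative Kcnk10, TREK-2, were both lower. Kcnk2 measured 101 and 102 in Ro cultures, against 381 and 303 in control cultures, a 3.34-fold fall (-1.74 ± 0.17, limma, adjusted p = 0.0015). Kcnk10 measured 263 and 249 in Ro cultures, against 548 and 557 in control cultures, a 2.16-fold fall (-1.11 ± 0.08, limma, adjusted p = 0.00077). For both genes both Ro arrays lay well below both control arrays. Kcnk3 encodes the acid-sensitive TASK-1 and was the 1 two-pore gene called higher. It measured 136 and 154 in Ro cultures, against 76.7 and 61.6 in control cultures, a 2.11-fold rise (limma, adjusted p = 0.0031). A second Kcnk3 probe, in a bright region, gave 0.71 ± 0.63, and the mean of both probes did not pass. The TWIK relative Kcnk6 measured 39.1 and 32.3 in Ro cultures, against 59.2 and 53.1 in control cultures, a 1.58-fold fall (limma, adjusted p = 0.023). The groups did not overlap, but the call was lost without control 1, without control 2 and without Ro 2.

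Kcnk13 encodes THIK-1, which carries the resting potassium current of microglia. It measured 667 and 707 in Ro cultures, against 1344 and 1499.8 in control cultures, a 2.07-fold fall (-1.05 ± 0.09, limma, adjusted p = 0.001). Kcnn4, the intermediate-conductance calcium-activated channel KCa3.1 found in microglia and blood cells, read 22.5 and 21.1 in Ro cultures, against 56.3 and 55.9 in control cultures. The Ro arrays were not well above background, which makes the fall at least 2.2-fold (limma, adjusted p = 0.00075). The labels put Iba1-positive microglia below 1% of the cells at day 12, before treatment. Of 10 microglial markers 9 were tested, and the homeostatic marker P2ry12 was not well above background. Cx3cr1, Csf1r, Aif1 and Itgam were lower in Ro and Tmem119 was higher, while C1qa, C1qb, C1qc and Tyrobp did not pass. The summed level was 6641 to 8481 in Ro, against 9791 to 10144 in control. The part of microglia in the lower Kcnk13 and Kcnn4 was not tested.

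Most voltage-gated subunits with a call were lower in Ro. Kcna4 encodes the A-type channel Kv1.4, which inactivates fast, and read 13.7 and 20.4 in Ro cultures, against 121 and 128 in control cultures. It was not well above background in Ro, so that the fall was at least 4.89-fold (limma, adjusted p = 0.00059). Of the electrically silent subunits that assemble with Kv2 pores, 3 were lower. Kcnf1 (Kv5.1) measured 218 and 198 in Ro cultures, against 814 and 736 in control cultures, a 3.72-fold fall. Kcns3 (Kv9.3) measured 178 and 159 in Ro cultures, against 515 and 472 in control cultures, a 2.93-fold fall. Kcns1 (Kv9.1) read 12.7 and 11.7 in Ro cultures, against 56.3 and 45.6 in control cultures, and was not well above background in Ro, a fall of at least 1.99-fold. Adjusted p-values from limma were 0.00024 for Kcnf1, 0.00048 for Kcns3 and 0.002 for Kcns1. Among Kv2 pores and their silent partners, Kcnb2, Kcng3, Kcng4, Kcns2, Kcnv1 and Kcnv2 were not well above background on both arrays of any group.

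Kv3 channels allow fast repolarisation. Kcnc1 (Kv3.1) measured 142 and 172 in Ro cultures, against 401 and 343 in control cultures, a 2.38-fold fall (limma, adjusted p = 0.0029). Kcnc2 (Kv3.2) measured 88.0 and 110.5 in Ro cultures, against 223 and 227 in control cultures, a 2.28-fold fall (limma, adjusted p = 0.0019). A second probe of each gene gave -1.21 for Kcnc1 and -1.23 for Kcnc2, against -1.25 and -1.19 for the probes used. Kcnc4 (Kv3.4), which astrocytes can express, read 25.3 and 95.6 in washout, 30.0 and 33.4 in Ro and 67.7 and 67.0 in control, and its spots lay in bright regions on both washout arrays. The Ro values were below both control values, but the difference of -1.09 ± 0.61 did not pass (limma, adjusted p = 0.209). It passed when the washout arrays were left out of the fit. Kcnh5 (Kv10.2, of the EAG family) measured 92.4 and 93.9 in Ro cultures, against 223 and 214 in control cultures, a 2.34-fold fall (limma, adjusted p = 0.013) that was lost without any 1 of the 4 Ro and control arrays (adjusted p up to 0.062).

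The Kv4 pores, which carry A-type current, went in opposite directions. Kcnd2 (Kv4.2) measured 329 and 327 in Ro cultures, against 222 and 193 in control cultures, a 1.59-fold rise (0.67 ± 0.11, limma, adjusted p = 0.0073), and a second probe gave 0.83. Kcnd3 (Kv4.3) measured 240.1 and 220.5 in Ro cultures, against 381 and 459.6 in control cultures, a 1.82-fold fall (-0.86 ± 0.11, limma, adjusted p = 0.004). In both genes the arrays of the 2 groups did not overlap. Kcna1 (Kv1.1) was the other voltage-gated gene called higher, at 611 and 595 in Ro, against 409 and 386 in control (1.52-fold, adjusted p = 0.0028). Kcna5 (Kv1.5) was counted among the calls but read 4.76 and 6.64 in Ro cultures, against 22.9 and 19.7 in control cultures, with neither group well above background, so that no fold is given. Calls were not made for Kcna2, Kcnh2, Kcnh4, Kcnh6 and Kcnq1, although for Kcnh2, Kcnh4 and Kcnh6 both Ro arrays lay below both control arrays. Kcnh2 read 206 and 266 in Ro cultures, against 378 and 421 in control cultures. Its values in washout were 333 and 207, with the spot on washout 1 in a bright region, and all 6 arrays share the fit.

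Calcium-activated channels comprise the large-conductance pore Kcnma1 with its beta subunits, and the small- and intermediate-conductance Kcnn genes. The Kcnma1 probe was not well above background on both arrays of any group. Kcnmb4, the beta4 subunit of brain, measured 2177 and 2059.7 in Ro cultures, against 943 and 927 in control cultures, a 2.26-fold rise (1.18 ± 0.08, limma, adjusted p = 0.00063). Kcnmb1, the beta1 subunit of smooth muscle, read 4.62 and 5.69 in Ro cultures, against 48.8 and 50.8 in control cultures, and was well above background in control only. Its fall was at least 1.95-fold (limma, adjusted p = 0.00015), next to the lower smooth muscle markers given above, and their part was not tested. Kcnmb2 read 30.6 and 31.7 in Ro cultures, against 15.3 and 21.6 in control cultures, and did not pass (adjusted p = 0.079). Among small-conductance channels, Kcnn2 (SK2) measured 903 and 964 in Ro cultures, against 479.6 and 465 in control cultures, a 1.98-fold rise (0.98 ± 0.08, limma, adjusted p = 0.00089), and a second probe gave 1.19. Kcnn3 (SK3) read 102 and 22.7 in washout, 111 and 12.3 in Ro and 22.3 and 32.9 in control. The arrays of the same group differed several-fold in both Ro and washout, and its difference of 0.45 ± 1.22 could not be told from 0 (95% interval -2.67 to 3.56). Kcnn1 (SK1) gave 0.02 ± 0.25. The sodium-activated Kcnt1 (Slack) passed with -0.38 ± 0.09 (adjusted p = 0.029), but a second probe gave 0.05 and the call was lost on leaving out any 1 of the 4 Ro and control arrays.

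Auxiliary subunits of the Kcnab, Kcne and Kcnip genes were lower or not past the threshold. The Kcnmb beta subunits, of which Kcnmb4 was higher, are given above with the calcium-activated channels. Kcnip1 encodes KChIP1, a calcium-binding partner of Kv4 pores, and measured 92.4 and 94.5 in Ro cultures, against 445 and 485 in control cultures, a 4.97-fold fall (-2.31 ± 0.27, limma, adjusted p = 0.0026). Kcnip3 encodes KChIP3, which also acts as the transcriptional repressor DREAM, and measured 70.3 and 76.3 in Ro cultures, against 194 and 206 in control cultures, a 2.73-fold fall (-1.45 ± 0.11, limma, adjusted p = 0.00069). Both Kv4 partners thus stood below control, as did Kcnd3, while Kcnd2 stood above. Kcne1l, a single-pass subunit of the MinK family, measured 1856 and 2036 in Ro cultures, against 9295 and 8398 in control cultures, a 4.54-fold fall (-2.18 ± 0.11, limma, adjusted p = 0.00027). Kcnab1, a cytoplasmic beta subunit of Kv1 pores, measured 757 and 805 in Ro cultures, against 1206 and 1225 in control cultures (1.56-fold lower, limma, adjusted p = 0.0032). Its relative Kcnab2 measured 109 and 115 in Ro cultures, against 175 and 183 in control cultures (1.6-fold lower, limma, adjusted p = 0.002). Their arrays did not overlap between the 2 groups. Kcnab3, Kcne1 and Kcne2 did not pass, and the non-coding transcript Kcnq1ot1 gave 0.45 ± 0.22 without a call.

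**Figure D2:**
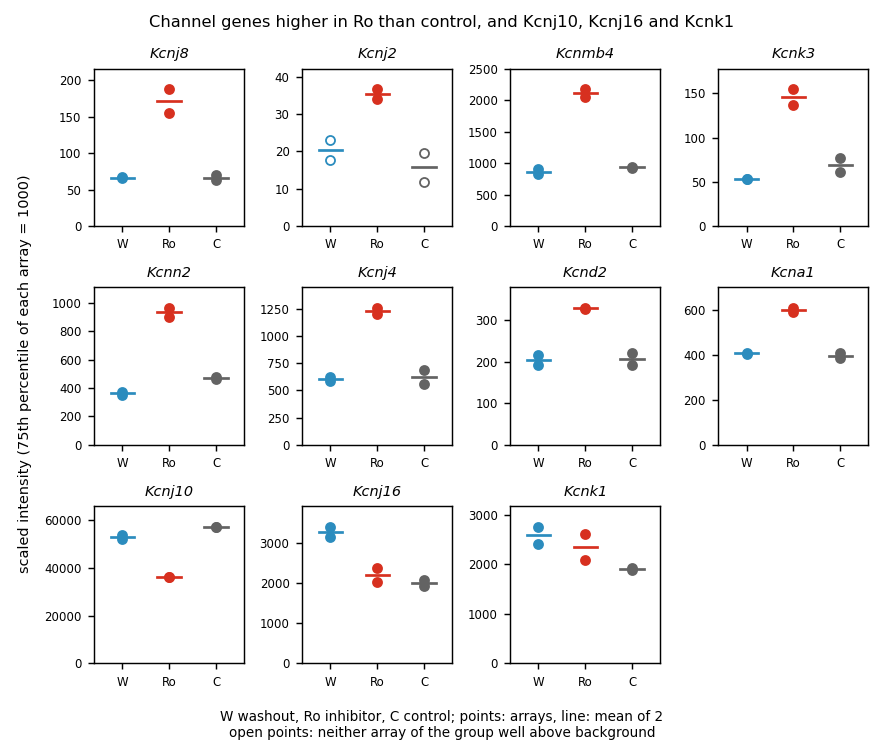
Scaled intensity on each array (75th percentile of the array set to 1000, linear axis from 0, own scale per gene) for the 8 channel genes higher in Ro than in control and for Kcnj10, Kcnj16 and Kcnk1, with washout, Ro and control from left to right, lines for the mean of 2 arrays and open points for groups not well above background. In the genes called higher, drawn because of that call, both Ro arrays lie above the other 4 arrays. Kcnj10 is lowest in Ro at 36169.6 and 35987 and Kcnj16 is highest in washout at 3400.4 and 3138.

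**Figure D3:**
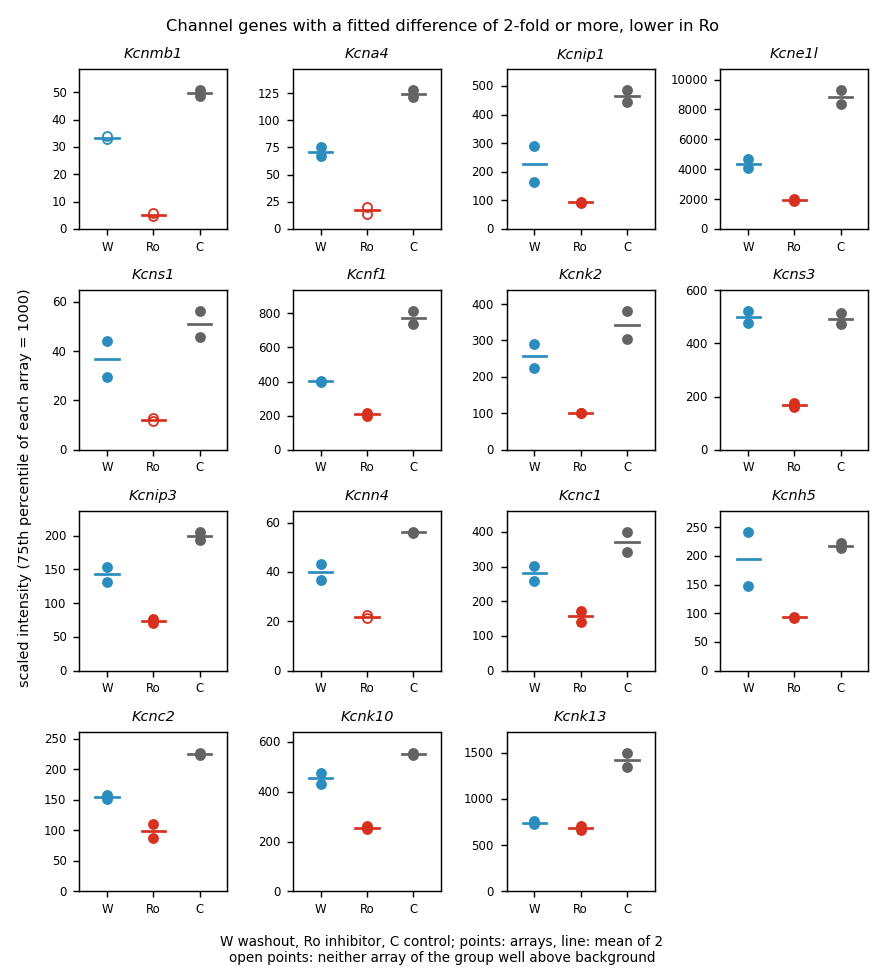
Scaled intensity on each array, as a linear axis from 0 with its own scale per gene, for the channel genes reported by name with a called and fitted difference of at least 2-fold lower in Ro, leaving out Kcna5, with washout, Ro and control from left to right, lines for the mean of 2 arrays and open points for groups not well above background. Both Ro arrays lie below both control arrays in each panel, which the choice of genes by their call largely ensures. Kcnk13 measured 755 and 729 in washout.

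The comparison of washout with Ro asked whether channel transcripts moved once the inhibitor had been removed. It shares the Ro arrays with the comparison above, so a chance deviation of those arrays would appear in both with opposite signs. The share of all features called in Ro that turned back in washout was not counted. The counts of such channel genes below therefore lack it. Over all tested features, washout arrays correlated with control arrays at 0.984 to 0.985 and with Ro arrays at 0.960 to 0.964. Of the 48 tested genes 22 were higher and 7 lower in washout than in Ro. Over all features 41.5% passed, 21.4% as higher and 20.1% as lower. Calls with a fitted difference of at least 2-fold numbered 9 higher and 5 lower, beside 6.6% and 4.9% of all features. The 9 include Kcns1, given below as a bound under 2-fold, Kcnmb1, given without a fold, and Kcna5, on bright-region spots. The median log2 difference was 0.47 over the tested channel genes and -0.02 over all features. Called genes that passed the filter through 1 group alone were Kcna5, through washout, and Kcnmb1, Kcnn4 and Kcns1, through control. With probes above background on all 6 arrays, 17 of 33 channel genes were higher and 7 lower. Of the 17796 features tested that way, 4217 were higher and 3812 lower.

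Of the 8 genes higher in Ro than in control, 7 were lower in washout than in Ro. Kcnn2 measured 375 and 351 in washout, 2.57-fold below Ro (limma, adjusted p = 0.00035). Kcnk3 measured 52.9 and 53.8 in washout, 2.72-fold below Ro, a call that was lost with the mean of both its probes (adjusted p = 0.088). Kcnj8 measured 66.9 and 66.5 in washout, 2.56-fold below Ro. In washout Kcnn2 and Kcnk3 stood below both control arrays and Kcnj8 between them. Kcnmb4 measured 912 and 825 in washout, 2.44-fold below Ro, and Kcnj4 621 and 588, 2.04-fold below Ro. Kcna1 at 405 and 411 and Kcnd2 at 217 and 191 in washout differed from Ro by -0.56 ± 0.07 and -0.69 ± 0.11. Adjusted p-values of these 7 lay between 0.00035 and 0.0065 (limma). Kcnj2, the remaining gene, read 23.2 and 17.8 in washout, not well above background, and did not pass (adjusted p = 0.069).

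Of the 23 genes lower in Ro than in control, 19 were higher in washout than in Ro. Kcnj10 measured 53503 and 52128 in washout, 1.46-fold above Ro (0.55 ± 0.07, limma, adjusted p = 0.0028). Both washout arrays lay between Ro and control. Kcns3 measured 522 and 477 in washout, 2.97-fold above Ro, and its washout arrays overlapped those of control. The A-type Kcna4 measured 67.2 and 75.2 in washout, at least 2.79-fold above Ro. Kcnk2 measured 226 and 291 in washout, 2.52-fold above Ro, and Kcnk10 429.9 and 477, 1.77-fold above Ro. Both TREK genes lay above both Ro arrays. Kcnip1 measured 164 and 289 in washout, 2.33-fold above Ro, with washout arrays that differed from each other and a call that was lost without Ro 1, without Ro 2 and with no filter (adjusted p up to 0.081). Kcne1l measured 4679.9 and 4049 in washout, 2.24-fold above Ro, and Kcnf1 398 and 404, 1.93-fold above Ro. Kcne1l and Kcnf1 therefore stood between Ro and control, with no overlap with the arrays of either group.

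Among the remaining genes of that set, Kcnh5 measured 147 and 242 in washout, 2.03-fold above Ro, a call that was lost without Ro 1 and without Ro 2. Kcnip3 measured 154 and 132 in washout (1.94-fold above Ro) and Kcnc1 258 and 303 (1.8-fold). Kcnc2 measured 151 and 158 in washout (1.57-fold above Ro). Washout values of these Kcnip3, Kcnc1 and Kcnc2 probes lay below the lower control array and above the higher Ro array. A second Kcnip3 probe, inside a bright region on washout 2, was lower in Ro than in control too (-1.23) but read 148 and 209 in washout, against 94.3 and 78.4 in control, so that Kcnip3 in washout has no settled direction against control. Kcns1 measured 44.1 and 29.6 in washout, at least 1.42-fold above Ro, and Kcnn4 43.3 and 36.7, at least 1.56-fold above Ro. In each of these 2 genes 1 of the 2 washout arrays was well above background, and the Kcnn4 call was lost with normexp background (adjusted p = 0.11). The beta subunits Kcnab1 and Kcnab2 were 1.5-fold and 1.78-fold above Ro. Kcnmb1 read 32.7 and 34.1 in washout and passed the test against Ro, but neither group was well above background, so that no fold is given. Kcna5 read 125 and 188 in washout, at least 6.03-fold above Ro, on spots inside bright regions of both washout arrays. No value without those regions could be had for Kcna5.

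Kcnd3, Kcnk13, Kcnk6 and Kcnt1 were lower in Ro and not called between washout and Ro. Kcnd3 measured 232 and 240.4 in washout, against 240.1 and 220.5 in Ro, a difference of 0.04 ± 0.11 with a 95% interval of -0.26 to 0.33. Kcnk13 measured 755 and 729 in washout, against 667 and 707 in Ro, a difference of 0.11 ± 0.09 with an interval of -0.11 to 0.33. Both stayed below both control arrays. Of 9 microglial markers 6 were higher and 1 lower in washout than in Ro, beside 21.4% and 20.1% of all features. Their summed level was 9906 to 10988 in washout, against 6641 to 8481 in Ro. The part of microglia in the Kcnk13 values was not tested. Kcnk6 read 35.0 and 28.3 in washout, not well above background. A further 3 genes with no call in Ro were higher in washout than in Ro. These were Kcnj16 (1.5-fold, limma, adjusted p = 0.011), the erg-type Kcnh6 (1.77-fold, adjusted p = 0.0067) and the MinK subunit Kcne1 (1.48-fold, adjusted p = 0.034). The Kcne1 call was lost in 10 of 20 alternative settings, median centring, quantile normalization, the authors' table and the replicate block among them (adjusted p up to 0.14). The Kcnh6 call was lost with normexp background (adjusted p = 0.0502). The Kcnj16 call was lost without Ro 1, and its 2 further probes gave 0.41 and 0.51 without passing.

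Washout was then set against control, which asks what was left 48 h after removal. It shares the control arrays with the first comparison and washout cannot be told apart from slide and culture age in it. Of the 48 tested genes 2 were higher and 8 lower in washout, beside 10.1% of all features, 4.13% higher and 5.97% lower. At least 2-fold were 1 higher, Kcna5, and 1 lower, Kcne1l, beside 0.896% and 1.27% of all features. Kcna5 passed the filter through washout alone, and Kcnmb1 and Kcnn4, both called lower, through control alone. With probes above background on all 6 arrays, 1 of 33 channel genes was higher and 8 lower. Of the 17796 features tested that way, 959 were higher and 1176 lower. Kcnj16 measured 3400.4 and 3138 in washout, against 2075 and 1930.0 in control, a 1.63-fold rise (0.71 ± 0.11, limma, adjusted p = 0.025). Its further probes gave 0.61 and 0.71 without passing. Kcna5 was at least 6.22-fold higher on its bright-region spots. Lower in washout than in control were Kcne1l (2.03-fold), Kcnf1 (1.93-fold), Kcnk13 (1.91-fold) and Kcnd3 (1.77-fold), with adjusted p between 0.0099 and 0.02 (limma). Kcnk6 (at least 1.6-fold), Kcnmb1 (at least 1.42-fold), Kcnn4 (1.41-fold) and Kcnn2 (1.3-fold) passed with adjusted p between 0.036 and 0.048. The share of all features lower in both washout and Ro than in control was not counted. Of the 8 genes lower in washout, 7 were lower in Ro as well and Kcnn2 was higher there. No such call held when control 2 was left out: limma then gave 0 higher and 0 lower, with 5 and 15 at an unadjusted p under 0.05.

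**Figure D4:**
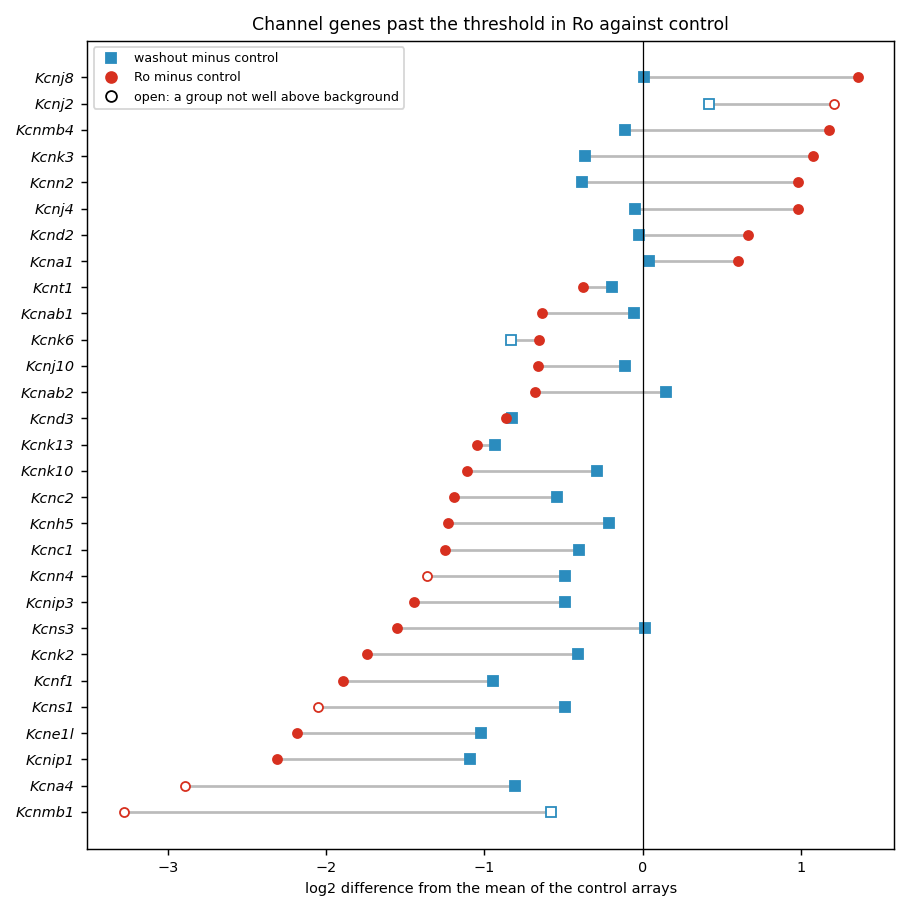
Log2 differences from the mean of the 2 control arrays for washout (squares) and Ro (circles), 1 row per channel gene reported by name and called between Ro and control except Kcna5; open symbols mark differences with a group not well above background. Squares lie nearer to 0 than circles for most genes, with Kcnd3 and Kcnk13 at -0.83 and -0.94 in washout and -0.86 and -1.05 in Ro, and both sets of points share the control arrays.

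No call in any of the 3 comparisons was made for 14 tested genes, among them Kcna2, Kcnab3, Kcnc4, Kcne2, Kcnh2, Kcnh4, Kcnj12, Kcnk1, Kcnmb2, Kcnn1, Kcnn3, Kcnq1 and Kcnq1ot1. Kcnk1 measured 2765 and 2407 in washout, with 0.44 ± 0.14 against control (adjusted p = 0.115). Kcnj12 read 48.9 and 46.3 in washout, and 1 control array was below the other 5 arrays. Genes not tested for want of signal, besides those named above, included Kcna3, Kcnd1, Kcne3, Kcne4, Kcnh1, Kcnh3, Kcnh7, Kcnh8, Kcnip2, Kcnip4, Kcnj1, Kcnj14, Kcnj15, Kcnk4, Kcnk5, Kcnk12, Kcnq3, Kcnq5, Kcnt2 and Kcnu1. For Kcna6, Kcna7, Kcna10, Kcng1, Kcng2, Kcnj13, Kcnk7, Kcnk9, Kcnk15, Kcnk16, Kcnk18, Kcnmb3, Kcnd3os, Kcnmb4os1 and Kcnmb4os2 no probe was matched, and they were not analysed here.

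GSK-3 marks beta-catenin for destruction, and beta-catenin acts through TCF/LEF factors, so the promoter windows were searched for the 7-letter core CTTTGAT or CTTTGAA on either strand. RefSeq promoters (GRCm38.p6, 250 bases before to 50 after each start) were in the table for 60 of the 82 genes, as 85 windows. The core stood in 4 of these 85 windows (4.71%), beside 2842 of 32851 windows of that length over all genes (8.65%). Counted by gene, it stood in 4 of the 60 (6.67%), beside 9.88% of all genes. Only 5 of the 8 genes higher in Ro had a window, and none of these 5 windows held it. Of the 36 windows of genes lower in Ro, from 20 genes, 2 held it (10.0% of those genes), 1 each of Kcnk2 and Kcns1. Another was in 1 of the windows of Kcnj16, and the last belonged to Kcne4. Kcnk2 and Kcns1 are shown because they are the genes lower in Ro that hold the core, Kcnj16 because it rose in washout, and Kcnj10 as the main astrocyte channel, with no match. Letters run 5′ to 3′ on the strand of the gene, and capitals mark the core or its reverse complement.
Kcnk2, chr1:189402224-189402523, minus strand, core starting 221 bases before the start site: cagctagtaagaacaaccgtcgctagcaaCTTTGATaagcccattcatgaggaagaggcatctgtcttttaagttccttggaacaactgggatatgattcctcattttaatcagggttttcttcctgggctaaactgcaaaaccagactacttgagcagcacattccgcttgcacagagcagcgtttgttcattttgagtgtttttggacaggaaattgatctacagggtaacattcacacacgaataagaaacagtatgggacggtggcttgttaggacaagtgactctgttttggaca
Kcns1, chr2:164171064-164171363, minus strand, core starting 173 bases before the start site: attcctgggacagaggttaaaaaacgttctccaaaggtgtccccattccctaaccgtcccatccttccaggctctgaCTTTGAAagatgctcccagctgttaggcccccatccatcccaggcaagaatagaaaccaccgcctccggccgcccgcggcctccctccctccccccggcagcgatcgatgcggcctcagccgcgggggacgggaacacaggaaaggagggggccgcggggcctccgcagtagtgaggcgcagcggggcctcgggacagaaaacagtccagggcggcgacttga
Kcnj16, chr11:110997237-110997536, plus strand, core starting 239 bases before the start site: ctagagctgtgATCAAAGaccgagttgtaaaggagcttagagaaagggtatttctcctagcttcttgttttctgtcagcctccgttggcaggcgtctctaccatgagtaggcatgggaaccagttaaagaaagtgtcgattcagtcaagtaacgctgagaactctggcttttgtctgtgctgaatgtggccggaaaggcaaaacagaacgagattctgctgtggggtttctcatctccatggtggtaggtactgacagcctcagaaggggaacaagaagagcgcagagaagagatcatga
Kcnj10, chr1:172340960-172341259, plus strand, no match: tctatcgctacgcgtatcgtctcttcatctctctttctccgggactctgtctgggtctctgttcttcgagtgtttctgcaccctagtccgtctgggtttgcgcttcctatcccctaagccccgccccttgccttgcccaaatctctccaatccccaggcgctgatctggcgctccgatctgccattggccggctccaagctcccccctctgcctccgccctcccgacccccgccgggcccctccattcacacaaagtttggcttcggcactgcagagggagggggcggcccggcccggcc
A match describes letters only and does not show binding.

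Channels act together with the sodium pump, which moves potassium into the cell, and with cotransporters and anchoring proteins. Of 13 tested genes of the sodium pump and the cation chloride cotransporters, 2 were higher and 5 lower in Ro than in control. Over all features 19.4% were higher and 22.7% lower. The FXYD proteins that tune the pump gave the largest differences. Fxyd1, phospholemman, measured 2518 and 2838 in Ro, against 6851 and 6659.9 in control, a 2.53-fold fall (-1.34 ± 0.10, limma, adjusted p = 0.00078). Fxyd6 measured 19583 and 21005 in Ro, against 55074 and 54120.0 in control, a 2.69-fold fall (-1.43 ± 0.11, limma, adjusted p = 0.00084). Both were higher in washout than in Ro, by 2.57-fold and 1.87-fold. There 4 genes of the list were higher and 4 lower, beside 21.4% and 20.1% of all features. The beta subunits of the pump were called in both directions: Atp1b2, the astrocyte form, was lower (-0.90 ± 0.11), as was Atp1b1, while Atp1b3 was higher. Fxyd5 was higher too. None of the 5 tested Slc12a cotransporters passed limma's threshold between Ro and control, and none had an unadjusted p under 0.05 there. Between washout and control 2 genes were lower, among them Fxyd6 (-0.53), beside 5.97% of all features. In that comparison limma called no gene of this list higher, also at an unadjusted p under 0.05.

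Of 9 tested partner and anchoring proteins 3 were higher and 3 lower in Ro, beside 19.4% and 22.7% of all features. Dmd encodes dystrophin, whose short form anchors Kir4.1 at astrocyte endfeet through the dystrophin complex, and measured 1673 and 1666 in Ro, against 3358 and 3345 in control. That 2.01-fold fall passed (-1.01 ± 0.07, limma, adjusted p = 0.00057), on a probe inside a bright region of the washout slide. Dtna, another protein of the complex, was lower (-0.49), while Dag1 of the same list did not pass (-0.18, limma, adjusted p = 0.523). Dpp6, which binds Kv4 pores, measured 144 and 134 in Ro, against 77.7 and 90.4 in control, and was higher (0.73 ± 0.17, adjusted p = 0.022), as was Kcnd2. In washout it measured 56.8 and 76.3, 2.11-fold below Ro. Dlg1, a scaffold of Kir and Kv1 channels, was also higher (0.51) and Amigo1, a partner of Kv2 pores, lower (-0.36). The related cation channels Hcn3 (-0.37) and Hcn4 (-0.44) were lower and Hcn2 did not pass.

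**Figure D5:**
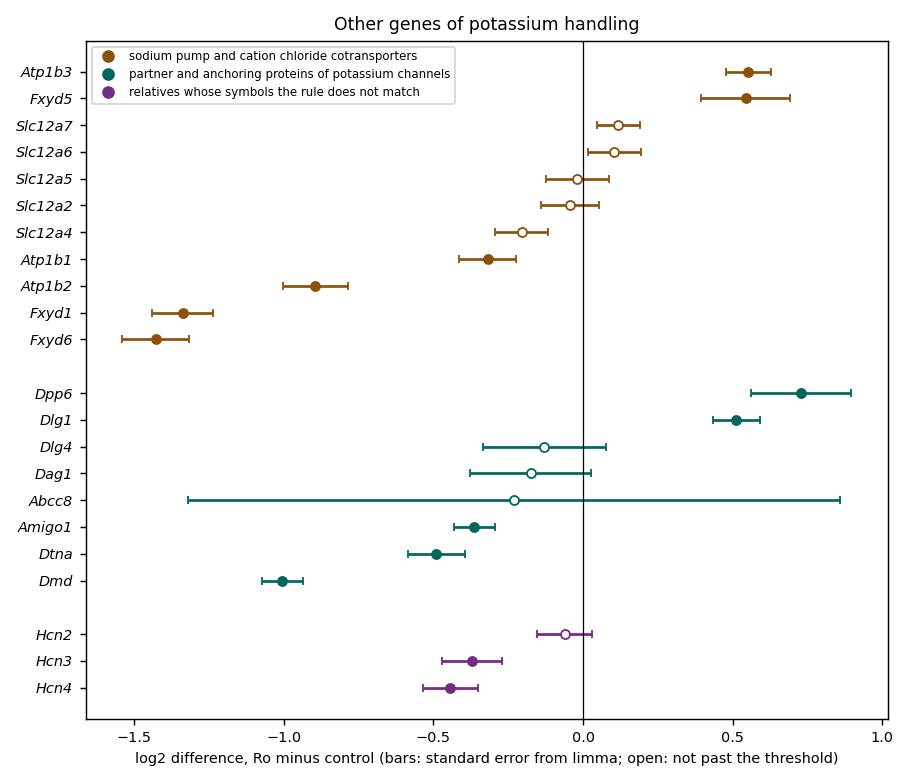
Log2 difference of Ro minus control for other genes of potassium handling, 1 row per gene in 3 lists with some genes not drawn, with the standard error from limma as bars (2 arrays per group) and open symbols for genes not past an adjusted p of 0.05. Fxyd1 and Fxyd6 lie at -1.34 and -1.43 and Dmd at -1.01.

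Markers of other cell types that express potassium channels also moved between Ro and control, where 42.1% of all features passed the threshold. Neuronal markers, of which 5 of 6 were tested, included 4 lower (Tubb3, Rbfox3, Syt1 and Stmn2) and Nefl higher, with a summed level of 2995 to 3228 in Ro, against 9012 to 9204 in control. Snap25 was not well above background. Voltage-gated subunits are rich in neurons, and the part of such cells in the lower Kcna4, Kcnc1, Kcnc2 and Kcnip1 was not tested. Markers of oligodendrocyte precursors, which also carry Kir4.1, were lower in all 4 tested (Pdgfra, Cspg4, Olig1 and Olig2), with a summed level of 6044 to 6054 in Ro, against 24179 to 24545 in control, and their part in the lower Kcnj10 was not tested. Of 4 ependymal markers all 4 were lower, at 11642 to 13515 in Ro, against 33832 to 34538 in control. Oligodendrocyte markers gave 1 higher and 1 lower of 4, and those of meningeal fibroblasts 1 higher and 3 lower of 5. Of the endothelial markers Kdr was higher, while Pecam1, Cldn5 and Cdh5 were not well above background. In washout the summed levels were 8933 to 9701 for neuronal, 14952 to 15789 for oligodendrocyte precursor, 38163 to 41117 for ependymal and 274889 to 287932 for pericyte and smooth muscle markers. Meningeal fibroblast markers were all 5 lower in washout than in control, at 9983 to 10225 in washout, against 16782 to 21704 in control, and their part in the channel genes lower in washout was not tested.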

How the data were processed

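Total RNA from 6 cultures was labelled with Cy3 and hybridised to one-colour Agilent arrays, per the labels. The deposited files hold spot intensity on a linear scale, extracted with Feature Extraction 10.5.1.1 per the file headers (10.1 per the submitters' processing notes) and corrected for background but not scaled between arrays. A series-wide table deposited beside them gives each probe a ratio whose centring is not given in the sources used here, and it served as an alternative.

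Of 41174 non-control probes, 106 with faulty spots were left out. From the log2 of the deposited processed intensity the array's own 75th percentile was subtracted. A probe stayed in when both arrays of some group were called well above background (26473 probes). Accessions were named through the reference table (25097 probes, 61.0%), and the brightest probe stood for a gene. The fit was made with limma 3.58.1 (R 4.3.3) over all 6 arrays, with 1 mean per group and two-sided moderated tests (3 residual and 2.09 prior degrees of freedom). With 2 arrays a group the smallest two-sided p of an exact permutation test is 0.333, so calls rest on the spread that limma pools over genes. The procedure was tested on simulated data. Named with values are channel genes called in any comparison, those with a bound and a list of astrocyte channels, and of the other potassium handling genes those called at least 2-fold, with further ones as examples chosen after their values were seen. Some genes enter the fit and the counts but are not reported by name here. The channel genes and all lists were chosen with earlier results of these data known. A planned search of protein sequences was not run, and the background correction named normexp used the median spot signal. Replicate numbers did not pair the arrays: same-numbered deviations correlated at -0.12 between Ro and control, 0.08 between washout and control and -0.11 between washout and Ro. Plots used matplotlib 3.10.9 (Python 3.11.15).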

Additional observations from a re-analysis of the deposited data

How the results depend on the processing

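No call between groups reversed under any alternative tried: normexp background, 2 other scalings, the authors' table, 2 other filters, 2 variance models, other probe rules, fewer arrays, replicate blocks, a fold minimum and leaving out bright regions. Leaving the fold minimum aside, 26 of the 31 channel genes called between Ro and control lost their call in no setting that tested them, and 22 of the 29 called between washout and Ro did not. Kcna4, Kcna5, Kcnmb1, Kcns1 and, between Ro and control, Kcnn4 are among them but were not tested under every filter. Of the 10 called between washout and control 0 kept the call throughout, counting limma fits without each array, and 5 higher and 15 lower had an unadjusted p under 0.05 without control 2. The fold minimum of 2, set on fitted differences, left 4 of the 8 higher in Ro than in control and 9 of the 22 higher in washout than in Ro. Leaving out 1 array gave 7 to 9 higher and 20 to 27 lower in Ro than in control, and 18 to 23 higher and 7 to 8 lower in washout than in Ro. For washout against control it gave 0 to 2 higher and 0 to 6 lower. The 2 higher in washout than in control became 0 with no filter (12 at an unadjusted p under 0.05), and 1 with probes above background on all 6 arrays, without bright regions, with a replicate block or with the fold minimum. The 8 lower became 1 with no filter and 1 with the fold minimum, and 4 each with only the 2 groups compared, with a replicate block and with an exchanged replicate block that crosses the Ro numbers, which was chosen after seeing the data. The numbers share no documented pairing, and the causes were not tested. Over all features the split of calls between washout and Ro was 4292 higher and 4039 lower, but 3436 and 5048 with median centring and 3281 and 5143 with the authors' table, which shifted the median of all features to -0.11 and -0.12. Between Ro and control the split was 3897 and 4563, against 4215 and 3982 and 4121 and 3904. Between washout and control the split was 829 and 1199, against 612 and 1375 and 574 and 1399. The channel counts under those scalings were 21 higher and 8 lower in washout than in Ro. Dim channels such as Kcnj2, Kcnmb1 and Kcns1 are limited by signal over background.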
